A study of Homo sapiens with 24 samples.

Results

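Transcripts of 6 mismatch repair genes, MSH6, MSH3, PMS2, PMS1, MLH3 and EXO1, taken by name from the deposited count table of 60655 genes, were followed in 24 messenger RNA libraries from a pair of human leukaemia cell lines. NB4 derives from acute promyelocytic leukaemia (APL). HL-60, labelled promyeloblast, is an acute myeloid leukaemia line that is not APL, and the labels give both as wild type. Each line was exposed for 48 h to all-trans retinoic acid (ATRA, 1 µM), which drives myeloid maturation, to arsenic trioxide (ATO, 0.8 µM), which degrades the fusion protein of APL, to the combination of both drugs, or was left untreated. The sample labels used here give no doses for the combination. Each of the 8 groups had 3 libraries, numbered as batches 1 to 3. The labels do not say that these came from separate cultures, so a p-value here measures no more than the spread between libraries, which may be technical. The series was set up to examine transcription under differentiation therapy and under the combination, and its title names the DNA damage response.

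Mismatch repair removes bases that were wrongly paired, and small loops of unpaired bases, left behind by DNA replication. A MutS complex finds the error, a MutL complex nicks the new strand, an exonuclease removes a stretch of it, and a polymerase and a ligase fill and seal the gap. MSH6 is the subunit of MutSα, which reads single mispairs and the smallest loops, and MSH3 the subunit of MutSβ, which reads larger loops. PMS2 carries the nicking activity of MutLα, PMS1 is the subunit of MutLβ, whose part in repair is not settled, and MLH3 is the subunit of MutLγ, best known from crossing over in meiosis. EXO1 is the exonuclease of the pathway and also resects DNA ends.

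In the GENCODE v29 annotation of GRCh38, MSH6 lies on chromosome 2 from 47695530 to 47810101 and PMS1 on chromosome 2 from 189784085 to 189877629, both on the plus strand. MSH3 lies on chromosome 5 from 80654648 to 80876460 and EXO1 on chromosome 1 from 241847967 to 241895148, also on the plus strand. On the minus strand, PMS2 lies on chromosome 7 from 5973239 to 6009125 and MLH3 on chromosome 14 from 75013764 to 75051532. All 6 are protein-coding.

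Promoter windows of 4 members are shown because they cover the patterns described further on: MSH6 and EXO1, which fell in both lines, MSH3, which passed no test under any treatment, and PMS1, which fell furthest with the combination in NB4 cells. Each window is the first that RefSeq gives on GRCh38.p14, plus strand, 250 bases before to 50 after the annotated start, which is base 251. The RefSeq start of MSH6 lies inside the GENCODE span given above, which begins further upstream. Capitals mark an E2F-type 8-mer, one of TTTCCCGC, TTTCGCGC, TTTGCCGC or TTTGGCGC on either strand.
MSH6 (chr2:47782895-47783194): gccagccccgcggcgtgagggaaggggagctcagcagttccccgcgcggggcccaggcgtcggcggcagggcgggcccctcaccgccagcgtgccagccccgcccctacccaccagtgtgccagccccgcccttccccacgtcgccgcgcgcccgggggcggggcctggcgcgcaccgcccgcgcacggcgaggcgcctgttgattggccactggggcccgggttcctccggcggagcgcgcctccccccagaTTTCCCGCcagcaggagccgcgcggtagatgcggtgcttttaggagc
EXO1 (chr1:241847954-241848253): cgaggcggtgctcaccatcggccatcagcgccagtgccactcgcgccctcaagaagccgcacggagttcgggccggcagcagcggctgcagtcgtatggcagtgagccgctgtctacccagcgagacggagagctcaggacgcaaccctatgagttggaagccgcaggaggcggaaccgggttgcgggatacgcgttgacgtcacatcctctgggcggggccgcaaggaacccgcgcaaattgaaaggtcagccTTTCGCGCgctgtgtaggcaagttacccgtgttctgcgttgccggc
MSH3 (chr5:80654402-80654701): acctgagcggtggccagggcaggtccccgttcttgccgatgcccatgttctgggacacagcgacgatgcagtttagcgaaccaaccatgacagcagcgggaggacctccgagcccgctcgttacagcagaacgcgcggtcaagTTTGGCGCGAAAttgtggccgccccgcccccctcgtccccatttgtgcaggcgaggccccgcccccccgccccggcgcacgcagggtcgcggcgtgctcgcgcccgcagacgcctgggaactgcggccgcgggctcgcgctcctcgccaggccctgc
PMS1 (chr2:189784200-189784499): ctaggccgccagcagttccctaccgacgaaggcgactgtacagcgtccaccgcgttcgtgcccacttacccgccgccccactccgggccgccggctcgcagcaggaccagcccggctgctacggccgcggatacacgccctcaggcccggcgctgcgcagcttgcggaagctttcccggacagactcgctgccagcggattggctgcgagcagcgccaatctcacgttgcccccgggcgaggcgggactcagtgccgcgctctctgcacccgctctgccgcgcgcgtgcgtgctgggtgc
In MSH6 and EXO1 the 8-mer began within the first bases after the start, at bases 254 and 255 of the window. MSH3 had 2 overlapping matches on opposite strands, at bases 144 to 151 and 148 to 155. PMS2 held one at bases 208 to 215, and the windows of PMS1 and MLH3 held none of these letters. A match was therefore present in 4 of the 6 members, against 3.33% of the first windows of 27305 genes. Other letters were also searched, on either strand of the same first windows. TGACGTCA and the retinoid half-site AGGTCA were each found in PMS2 and EXO1, against 1.98% and 13.9% of genes. CCAAT was found in MSH6, PMS1 and PMS2 (35.7% of genes), and GGGCGG in all members but MLH3 (44.6%). MSH3 and MSH6 both carry the 8-mer and differed in their response, and a match is a description of letters, not evidence of a bound factor.

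Library totals ran from 37811652 to 57795273 counts, and the lowest count of any member in any library was 235. Levels are CPM, counts scaled to library size, here with TMM factors. Changes are log2 changes ± SE from edgeR's quasi-likelihood test with 3 libraries per group, and a change was called below a Benjamini-Hochberg adjusted p of 0.05 over all genes tested. The drugs left their mark on the integrin gene ITGAM, which rises as myeloid cells mature, more strongly in NB4 than in HL-60 cells. In NB4 cells it averaged 252 ± 30.7 CPM with ATRA, 21.7 ± 0.854 with ATO and 328 ± 7.3 with the combination, against 7.19 ± 0.402 untreated (SD, n = 3 each). In HL-60 cells ITGAM averaged 46.1 ± 5.03 CPM with ATRA and 29.7 ± 1.92 with the combination, against 7.06 ± 0.769 untreated. The combination mean thus lay below that of ATRA there, unlike in NB4 cells. With ATO the HL-60 libraries stood at 11.7, 9.8 and 9.88 CPM, little above the untreated 6.88, 7.9 and 6.39 CPM. NB4 ATRA replicate 2 and HL-60 combination replicate 2 stood apart from the libraries of their groups. The chi-square per degree of freedom between their counts and those of the group's other libraries was 20.5 and 39.3 for the NB4 library and 25.9 and 18.4 for the HL-60 library, against 4.77 to 17.0 for every other pair.

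MSH6 fell under all 3 treatments in NB4 cells, and under ATRA and the combination in HL-60 cells. In NB4 cells it stood at 146, 181 and 141 CPM with ATRA, 191, 194 and 183 CPM with ATO and 121, 114 and 114 CPM with the combination, against 257, 268 and 247 CPM untreated. No treated library reached the untreated range, and the combination libraries lay below those of either single drug. The changes were -0.70 ± 0.0748 with ATRA (adjusted p = 3.62e-08), -0.46 ± 0.0744 with ATO (4.06e-05) and -1.15 ± 0.0755 with the combination (6.82e-12), so that MSH6 fell by 55.0% under the combination. Without NB4 ATRA replicate 2, the highest MSH6 library of its group, the ATRA change was -0.83. In bulk RNA, fewer cells of a kind and less RNA per cell cannot be told apart.

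HL-60 cells showed the same order for MSH6, with 172, 171 and 171 CPM with ATRA, 221, 224 and 219 CPM with ATO and 143, 120 and 140 CPM with the combination, against 240, 241 and 255 CPM untreated. No treated library overlapped the untreated ones. The changes were -0.51 ± 0.053 with ATRA (adjusted p = 3.35e-08) and -0.85 ± 0.0536 with the combination (3.56e-12), and the combination change was -0.78 without HL-60 combination replicate 2. With ATO the change was -0.14 ± 0.0527 and missed the threshold (adjusted p = 0.055), while the fit with the batch number as a block called it (adjusted p = 0.0423), as did DESeq2 (0.0349), limma-voom (0.0343) and the fit without HL-60 combination replicate 2 (0.00557).

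MSH3 passed no test against untreated cells in either line. In NB4 cells it stood at 28.4, 34.3 and 28.7 CPM with ATRA, 32.7, 31.8 and 31.0 CPM with ATO and 33.3, 31.3 and 34.6 CPM with the combination, against 31.2, 33.3 and 31.7 CPM untreated. The groups overlapped throughout, and the 95% interval of the log2 change ran from -0.22 to 0.11 for ATRA, from -0.19 to 0.14 for ATO and from -0.13 to 0.20 for the combination. Those intervals exclude a fall of the size seen for MSH6 under each drug in the same libraries. In HL-60 cells MSH3 averaged 15.7 ± 0.322 CPM with ATRA, 17.0 ± 1.35 with ATO and 16.5 ± 1.46 with the combination, against 17.6 ± 1.18 CPM untreated (SD, n = 3 each), with changes of -0.16, -0.04 and -0.08 and adjusted p of 0.153, 0.784 and 0.482. The 3 ATRA libraries lay below the 3 untreated ones, and the other groups overlapped them.

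With one recognition subunit falling and the other not, the ratio of MSH6 to MSH3 reads shifted. It was 5.16, 5.27 and 4.92 with ATRA, 5.85, 6.10 and 5.91 with ATO and 3.64, 3.65 and 3.29 with the combination in NB4 cells, against 8.22, 8.05 and 7.78 untreated. In HL-60 cells it was 10.7, 11.1 and 10.9 with ATRA, 12.2, 14.4 and 12.6 with ATO and 7.85, 7.54 and 9.12 with the combination, against 14.1, 14.3 and 13.4 untreated. The ratio was lower in every treated library than in every untreated one except under ATO in HL-60 cells, where the groups overlapped. Per length of annotated exon the mean ratio was 1.51 ± 0.088 with the combination and 3.43 ± 0.095 untreated in NB4 cells, and 3.50 ± 0.358 and 5.97 ± 0.198 in HL-60 cells (SD, n = 3). In log2 the shift was -0.65, -0.43 and -1.19 for ATRA, ATO and the combination in NB4 cells and -0.35, -0.10 and -0.78 in HL-60 cells. Exact two-sided permutation tests gave p = 0.1, the smallest that 3 libraries against 3 allow, for all but ATO in HL-60 cells (p = 0.4).

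**Figure D1:**
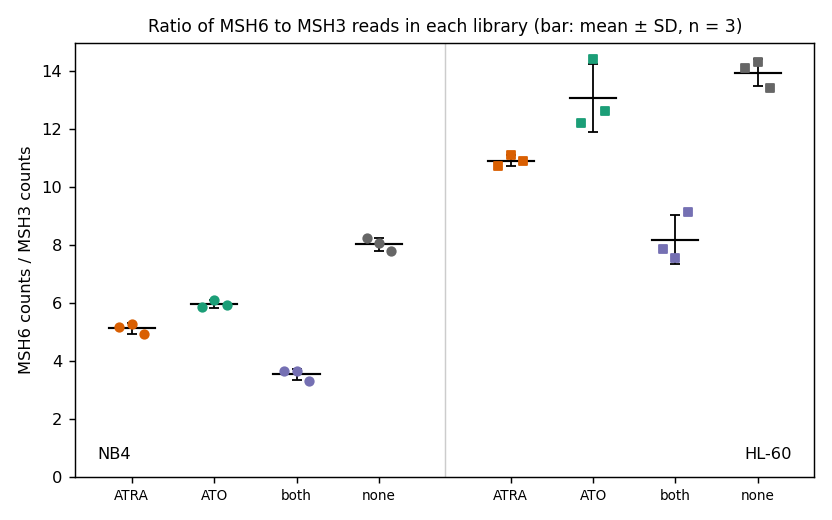
Ratio of MSH6 to MSH3 read counts in each library (vertical axis, no length correction), by treatment within each line (both, the combination; none, untreated); points are libraries and bars the mean ± SD of 3. NB4 combination libraries lie between 3.29 and 3.65 and untreated NB4 libraries between 7.78 and 8.22, and HL-60 libraries lie higher than NB4 libraries given the same treatment.

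Of the MutL genes, PMS1 fell under every treatment in NB4 cells and had the steepest combination change of the 6 members. It stood at 30.9, 38.7 and 27.9 CPM with ATRA, 39.1, 41.3 and 39.9 CPM with ATO and 25.0, 22.4 and 21.8 CPM with the combination, against 69.7, 63.2 and 57.8 CPM untreated. All treated libraries were below the lowest untreated one, and the combination libraries were the lowest. The changes were -0.95 ± 0.099 with ATRA (adjusted p = 2.61e-08), -0.68 ± 0.0976 with ATO (9.03e-06) and -1.47 ± 0.1 with the combination (1.39e-11), and the ATRA change was -1.10 without NB4 ATRA replicate 2. In HL-60 cells PMS1 stood at 37.6, 37.7 and 42.1 CPM with ATRA, 35.2, 34.6 and 36.7 CPM with ATO and 41.5, 35.4 and 45.3 CPM with the combination, against 43.2, 39.3 and 43.8 CPM untreated. ATO alone separated from the untreated group there, with a fall of -0.23 ± 0.0794 (adjusted p = 0.0307). That call was lost without HL-60 ATO replicate 1 (adjusted p = 0.0826) or 2 (0.0818), without HL-60 untreated replicate 1 (0.0971) or 3 (0.103), and in the fit of all 24 libraries (0.0618).

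MLH3, the least abundant member, also fell under each treatment in NB4 cells and was called under none in HL-60 cells. It stood at 6.90, 8.14 and 5.37 CPM with ATRA, 12.1, 11.3 and 9.17 CPM with ATO and 7.23, 5.06 and 5.21 CPM with the combination in NB4 cells, against 16.1, 14.6 and 13.7 CPM untreated. The groups did not overlap the untreated one, while the ATRA and combination libraries overlapped each other. The changes were -1.10 ± 0.154 with ATRA (adjusted p = 2e-06), -0.46 ± 0.148 with ATO (0.0169) and -1.35 ± 0.154 with the combination (7.03e-08). The ATO call was lost without NB4 ATO replicate 3 (-0.35, adjusted p = 0.106), without NB4 untreated replicate 1 (-0.39, 0.0768) and when MLH3 counts were scaled by library sizes alone (-0.35, 0.0691). In HL-60 cells MLH3 averaged 14.5 ± 0.798 CPM with ATRA, 15.3 ± 1.06 with ATO and 15.2 ± 1.41 with the combination, against 14.9 ± 1.62 CPM untreated (SD, n = 3 each). All 3 groups overlapped the untreated one, and the 95% interval of the log2 change ran from -0.24 to 0.17 for ATRA and from -0.16 to 0.25 for ATO and for the combination.

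PMS2 fell under ATRA and the combination in NB4 cells and was not called under ATO or in HL-60 cells. It stood at 28.8, 27.5 and 28.6 CPM with ATRA, 42.6, 40.1 and 41.1 CPM with ATO and 32.6, 30.1 and 27.7 CPM with the combination, against 38.2, 35.2 and 36.2 CPM untreated. ATRA and combination libraries were all below the untreated ones and ATO libraries all above them. The changes were -0.35 ± 0.0759 with ATRA (adjusted p = 0.000421), 0.16 ± 0.0748 with ATO (0.0931, not called) and -0.29 ± 0.0754 with the combination (0.00187). The ATO value passed when the counts of PMS2 were scaled by library sizes alone (0.27, adjusted p = 0.00568) or fitted with the groups compared alone (0.17, 0.0274). In HL-60 cells PMS2 averaged 23.6 ± 1.69 CPM with ATRA, 24.6 ± 0.436 with ATO and 21.2 ± 1.26 with the combination, against 23.4 ± 0.923 CPM untreated, and no change was called (adjusted p of 0.812, 0.42 and 0.166). The 3 combination libraries lay below the 3 untreated ones there, and with library sizes alone PMS2 was called lower with the combination (-0.21, adjusted p = 0.0243, against -0.13 with TMM).

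PMS2 has near-identical copies on chromosome 7, so reads may have been shared out between them and its counts are uncertain. PMS2CL, a transcribed pseudogene, averaged 27.7 ± 2.75 CPM with ATRA, 21.1 ± 1.37 with ATO and 20.9 ± 0.242 with the combination in NB4 cells, against 22.6 ± 1.38 CPM untreated (SD, n = 3 each). It rose with ATRA (0.32 ± 0.0883, adjusted p = 0.00384) while PMS2 fell, and its ATO and combination changes of -0.11 and -0.12 were not called. PMS2P1 fell with the combination in NB4 cells (-0.32 ± 0.0794, adjusted p = 0.00104) and in HL-60 cells (-0.38 ± 0.0923, 0.00106). PMS2P3 fell with the combination in NB4 cells (-0.33 ± 0.107, adjusted p = 0.00831), and PMS2P5 fell in HL-60 cells with ATRA (-1.22 ± 0.187, 9.47e-06) and the combination (-1.64 ± 0.197, 1.83e-07).

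EXO1 fell under every treatment in both lines. In NB4 cells it stood at 29.4, 32.3 and 27.7 CPM with ATRA, 43.4, 49.8 and 41.4 CPM with ATO and 29.9, 27.2 and 25.6 CPM with the combination, against 66.6, 65.5 and 63.8 CPM untreated. ATRA and combination libraries overlapped each other, and ATO libraries lay between them and the untreated ones. The changes were -1.11 ± 0.0846 with ATRA (adjusted p = 1.43e-10), -0.55 ± 0.0828 with ATO (1.41e-05) and -1.25 ± 0.0846 with the combination (1.19e-11).

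In HL-60 cells EXO1 stood at 76.9, 77.9 and 70.7 CPM with ATRA, 89.9, 95.7 and 90.6 CPM with ATO and 60.6, 56.9 and 58.1 CPM with the combination, against 109, 105 and 107 CPM untreated. No group overlapped another. The changes were -0.50 ± 0.0527 with ATRA (adjusted p = 4.31e-08), -0.20 ± 0.0524 with ATO (0.00515) and -0.85 ± 0.0536 with the combination (3.44e-12), the last equal to that of MSH6 at the 2 decimals given.

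**Figure D2:**
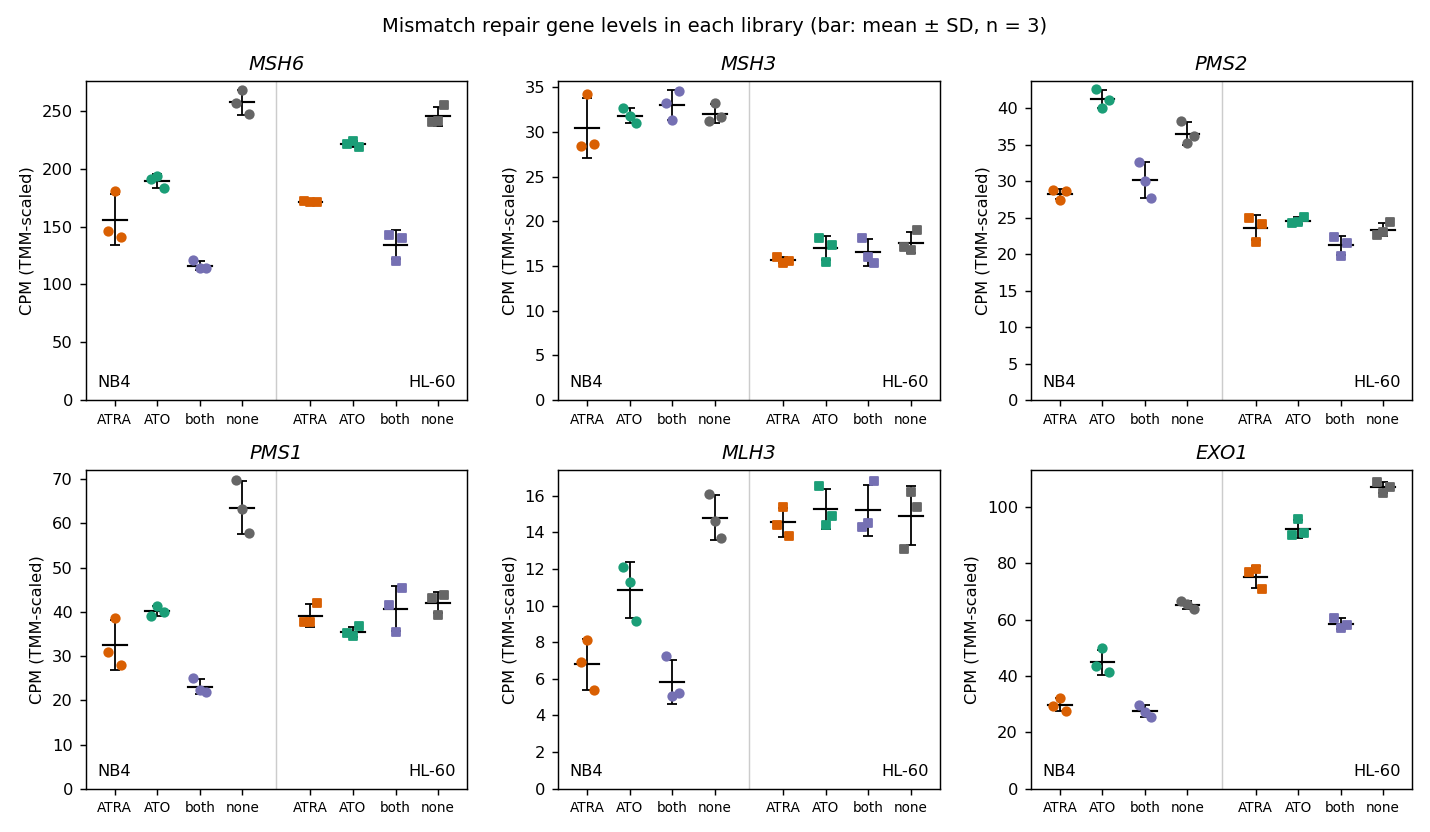
Level of each member in every library (vertical axis, CPM after TMM scaling, from 0), by treatment within each line (both, the combination; none, untreated); points are libraries and bars the mean ± SD of 3. MSH6 and EXO1 have their lowest mean with the combination in both lines, PMS1 and MLH3 lie well below untreated in the treated NB4 groups, with MLH3 at 5.06 to 7.23 CPM under the combination and 13.7 to 16.1 CPM untreated, and the groups of MSH3 lie close together within each line.

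In counts, 5 of 6 members were called lower with ATRA in NB4 cells, where 28.6% of the genes tested were called lower. With ATO 4 of 6 were called lower against a background of 19.6%, and with the combination 5 of 6 against 32.8%. In HL-60 cells 2 of 6 were called lower with each treatment, against backgrounds of 23.3% for ATRA, 12.1% for ATO and 29.7% for the combination. No member was called higher by any treatment in either line. The median log2 change of the members in NB4 cells was -0.82 with ATRA, -0.46 with ATO and -1.20 with the combination, where the medians of all genes tested were 0.028, 0.02 and 0.05. In HL-60 cells the members' medians were -0.13, -0.09 and -0.11, and those of all genes 0.009, 0.02 and -0.003. Among all genes called under ATO in NB4 cells, 51.9% were higher with TMM scaling and 69.0% with library sizes alone, which moved the median of all genes by 0.107.

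**Figure D3:**
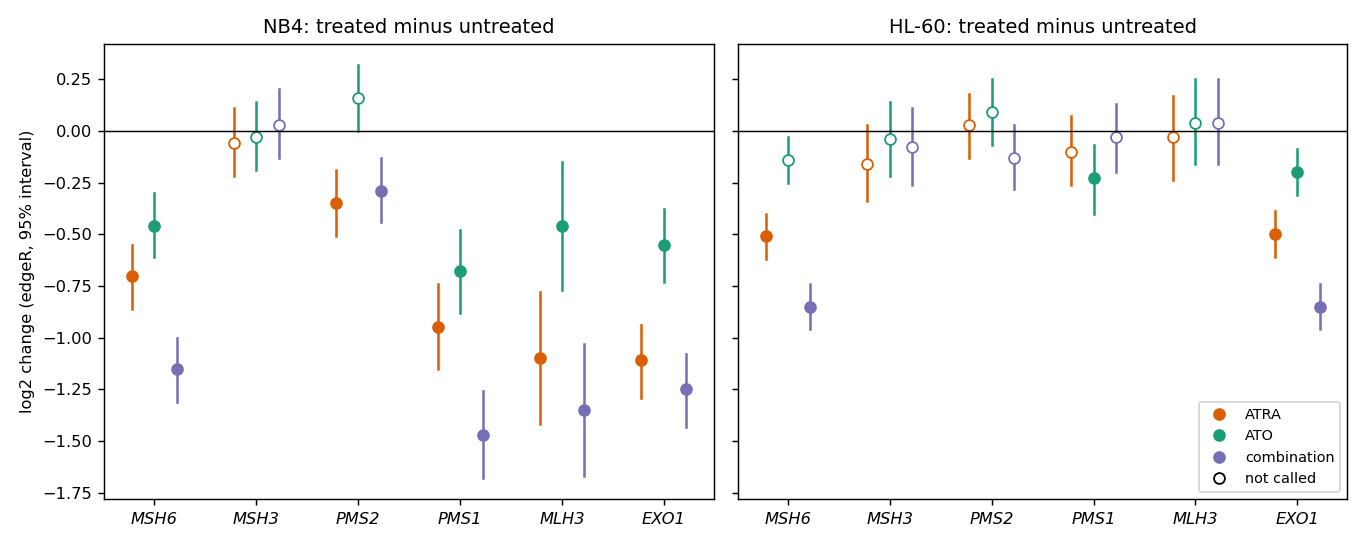
Log2 change of each member, treated minus untreated (vertical axis), in NB4 cells (left) and HL-60 cells (right); points are edgeR estimates, bars 95% intervals, and open points were not called. In NB4 cells the estimates of PMS1, MLH3, EXO1 and MSH6 with the combination lie between -1.47 and -1.15, and in HL-60 cells MSH6 and EXO1 are the members that fall with ATRA and the combination, each at -0.85 with the combination.

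Whether the lines differed in these responses was tested in a fit of all 24 libraries. Under ATRA, 4 of 6 members had a lower response in NB4 than in HL-60 cells, where 16.8% of genes were called in that direction: MLH3 by -1.08 ± 0.191 (adjusted p = 3.2e-05), PMS1 by -0.86 ± 0.135 (4.93e-06), EXO1 by -0.62 ± 0.0979 (5.33e-06) and PMS2 by -0.38 ± 0.104 (0.00372). MSH6 differed by -0.20 ± 0.0952 (adjusted p = 0.104) and was called without NB4 ATRA replicate 2 (-0.32, 0.00125). Under the combination 4 of 6 had a lower response in NB4 cells, against a background of 22.7%: PMS1 by -1.41 ± 0.136 (adjusted p = 2.67e-10), MLH3 by -1.37 ± 0.192 (4.38e-07), EXO1 by -0.37 ± 0.0981 (0.00206) and MSH6 by -0.28 ± 0.0956 (0.0174). The combination call of MSH6 was lost without HL-60 combination replicate 1 (-0.23, adjusted p = 0.0569), and with library sizes alone MSH6 (-0.14, 0.277) and EXO1 (-0.24, 0.052) both missed the threshold. That scaling moved the median difference of all genes by 0.135.

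Under ATO, EXO1 (-0.32 ± 0.0966, adjusted p = 0.0224), PMS1 (-0.42 ± 0.134, 0.0354) and MSH6 (-0.29 ± 0.0949, 0.0386) had a lower response in NB4 cells, 3 of 6 members against a background of 6.0%, and MLH3 missed the threshold (-0.47 ± 0.187, 0.0981). Leaving out any 1 of several libraries ended these calls: NB4 ATO replicate 1 or 3 or NB4 untreated replicate 1 for EXO1, PMS1 and MSH6 alike, NB4 untreated replicate 2 for PMS1 and MSH6, HL-60 ATO replicate 2 for EXO1 and MSH6, HL-60 ATO replicate 3 and HL-60 untreated replicate 2 for PMS1 and MSH6, and HL-60 ATO replicate 1 and HL-60 untreated replicate 1 for MSH6. None of EXO1 (-0.26, adjusted p = 0.0762), PMS1 (-0.35, 0.0888) and MSH6 (-0.23, 0.135) passed with library sizes alone, a scaling under which 70.4% of the genes called were higher in NB4 cells, against 54.2% with TMM. MSH3 responses did not differ between the lines by the test, with adjusted p of 0.615 for ATRA, 0.915 for ATO and 0.375 for the combination.

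**Figure D4:**
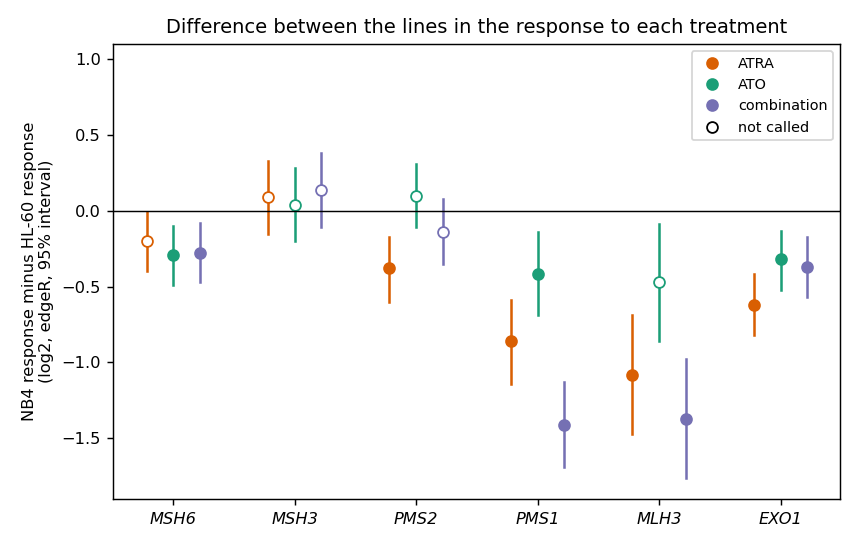
Difference between the lines in the log2 response of each member to each drug (vertical axis, NB4 response minus HL-60 response); points are edgeR estimates from 24 libraries, bars 95% intervals, and open points were not called. PMS1 and MLH3 lie lowest, at -1.41 and -1.37 with the combination, and the intervals of MSH3 span 0 for all 3 treatments.

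The combination was then set against each single drug. Against ATRA in NB4 cells, MSH6 (-0.45 ± 0.075, adjusted p = 5.53e-05) and PMS1 (-0.52 ± 0.101, 0.000268) were lower with the combination, 2 of 6 members where 21.2% of genes were called lower. EXO1 (-0.14 ± 0.0854, adjusted p = 0.22) and MLH3 (-0.25 ± 0.159, 0.233) did not pass, and their libraries overlapped. Against ATO in NB4 cells, all members but MSH3 were lower with the combination, 5 of 6 with a background of 28.3%, with changes of -0.70 for MSH6, -0.89 for MLH3, -0.79 for PMS1, -0.45 for PMS2 and -0.70 for EXO1, the largest adjusted p being 3.41e-05. For combination against ATRA in NB4 cells, 44.3% of genes called were higher with TMM and 68.4% with library sizes alone, a scaling that moved the median of all genes by 0.144 and called MSH3 (0.23, adjusted p = 0.0349) and PMS2 (0.20, 0.034) higher.

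In HL-60 cells, MSH6 (-0.34 ± 0.0535, adjusted p = 1.74e-05) and EXO1 (-0.35 ± 0.0537, 1.15e-05) were lower with the combination than with ATRA, 2 of 6 members with a background of 21.9%. Against ATO, MSH6 (-0.71 ± 0.0535, adjusted p = 1.15e-10), EXO1 (-0.65 ± 0.0536, 5.71e-10) and PMS2 (-0.21 ± 0.0763, 0.021) were lower with the combination, where 27.0% of genes were, and PMS1 was higher (0.20 ± 0.0799, 0.0385), where 27.5% were. The PMS1 libraries of these groups overlapped, and its call was lost without HL-60 ATO replicate 1 (adjusted p = 0.089) or 2 (0.0931) and without HL-60 combination replicate 1 (0.0655) or 3 (0.13, 0.21). The PMS2 call was lost without HL-60 ATO replicate 2 (adjusted p = 0.0563) or 3 (0.0699) and without HL-60 combination replicate 2 (0.0883) or 3 (0.05). Of genes called between combination and ATO in HL-60 cells, 50.5% were higher with TMM and 39.6% with library sizes alone, and the median of all genes moved by -0.101; PMS1 was then at 0.10 (adjusted p = 0.313) and PMS2 at -0.32.

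Set against each other, ATRA left 5 of 6 members lower than ATO did in NB4 cells, with a background of 24.2%. The changes were -0.24 ± 0.0746 for MSH6 (adjusted p = 0.00907), -0.64 ± 0.154 for MLH3 (0.00141), -0.27 ± 0.099 for PMS1 (0.0283), -0.51 ± 0.0756 for PMS2 (7.13e-06) and -0.56 ± 0.0845 for EXO1 (9e-06). Without NB4 ATRA replicate 2 the MSH6 change was -0.38 and that of PMS1 -0.43. The call of PMS1 was lost without NB4 ATRA replicate 1 (adjusted p = 0.0695) or 3 (0.114) and without NB4 ATO replicate 2 (0.0911) or 3 (0.0574). With library sizes alone the split of genes called moved to 33.8% higher, against 51.0% with TMM, the median of all genes moved by -0.171, and MSH6 and PMS1 stood at -0.41 and -0.44. In HL-60 cells MSH6 (-0.37 ± 0.053, adjusted p = 4.93e-06) and EXO1 (-0.30 ± 0.0527, 8.55e-05) were lower with ATRA than with ATO, 2 of 6 with a background of 20.5%. There 50.1% of genes called were higher with TMM and 39.1% with library sizes alone.

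Doses within the combination are not labelled and were taken to equal those of the single drugs. An interaction term asked whether the combination departed from the sum of the single-drug log2 changes. In NB4 cells EXO1 did, by 0.42 ± 0.119 (adjusted p = 0.0163), so that its combined fall of -1.25 was smaller than the sum of -1.11 and -0.55. That was 1 of 6 members where 6.14% of genes were called higher, and the call was lost without NB4 ATO replicate 1 (0.39, adjusted p = 0.0531) or 3 (0.36, 0.0631). MSH6 in NB4 cells had an interaction of 0.01 ± 0.106 (adjusted p = 0.987), and those of MSH3, MLH3, PMS1 and PMS2 were not called either.

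In HL-60 cells the interaction was -0.20 ± 0.0751 for MSH6 (adjusted p = 0.042), with a background of 18.1% lower, and 0.30 ± 0.112 for PMS1 (0.048), with a background of 14.4% higher. With library sizes alone PMS1 missed the threshold (0.24, adjusted p = 0.113), while PMS2 (-0.30, 0.0421) and EXO1 (-0.20, 0.0417) were called lower. The MSH6 call was lost without any 1 library other than HL-60 combination replicates 1 and 3 and HL-60 untreated replicate 3, and its estimate was -0.13 without HL-60 combination replicate 2. The PMS1 call was lost without any 1 library other than HL-60 ATRA replicate 3, HL-60 combination replicate 2 and HL-60 untreated replicate 2. Between the lines, the interaction of EXO1 was higher in NB4 cells by 0.58 ± 0.139 (adjusted p = 0.00395), 1 of 6 members with a background of 6.16%. For that comparison 42.8% of genes called were higher with TMM and 57.3% with library sizes alone, and MSH6 was called too without NB4 ATRA replicate 2 (0.34, adjusted p = 0.0294).

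Before treatment 4 of the 6 genes were called different between the lines. Of all 17930 genes tested, 5220 were higher and 6104 lower in NB4 cells, a similar share. MSH3 was higher in NB4 than in HL-60 cells by 0.87 ± 0.0839 (adjusted p = 1.48e-10), PMS2 by 0.65 ± 0.0731 (3.96e-09) and PMS1 by 0.59 ± 0.0943 (2.09e-06), 3 members where 29.1% of genes were higher in NB4 cells. EXO1 was lower in NB4 cells by -0.71 ± 0.0684 (adjusted p = 1.2e-10), 1 member where 34.0% of genes were lower. MSH6 (0.07 ± 0.0671, adjusted p = 0.389) and MLH3 (-0.02 ± 0.132, 0.937) were not called, and their libraries overlapped between the lines. With library sizes alone the median of all genes moved by 0.129 and MSH6 was called at 0.22 (adjusted p = 0.00805).

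Apart from the ratio of MSH6 to MSH3 reads, levels of different genes were compared per kilobase, of annotated exon (RPKM) or of the principal transcript. In untreated NB4 cells MSH6 led at 23.4 ± 0.953 RPKM, followed by EXO1 at 15.8 ± 0.342, PMS1 at 11.7 ± 1.09, PMS2 at 9.29 ± 0.38, MSH3 at 6.81 ± 0.228 and MLH3 at 1.77 ± 0.149 (SD, n = 3 each). With the combination in NB4 cells MSH6 stood at 10.6 ± 0.385 RPKM, PMS2 at 7.65 ± 0.634, MSH3 at 7.02 ± 0.362, EXO1 at 6.67 ± 0.527, PMS1 at 4.23 ± 0.314 and MLH3 at 0.697 ± 0.145. PMS2, MSH3 and EXO1, neighbours in that order, differed by less than 1 SD of the higher of each pair. In untreated HL-60 cells EXO1 led at 25.8 ± 0.503 RPKM, ahead of MSH6 at 22.3 ± 0.753, PMS1 at 7.72 ± 0.45, PMS2 at 5.94 ± 0.235, MSH3 at 3.74 ± 0.252 and MLH3 at 1.78 ± 0.193. The order depends on the length used. Per length of the principal transcript, MSH6 was at 32.8 ± 1.11 and EXO1 at 30.8 ± 0.60 in untreated HL-60 cells, and in untreated NB4 cells PMS1 was at 19.7 ± 1.84 and EXO1 at 18.8 ± 0.408. Other neighbours in the 3 orders per annotated exon were further apart than that. MLH3 was lowest in all 8 groups on either length.

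Over the 24 libraries, with the mean of each line removed, MSH6 and EXO1 varied most alike of the member pairs (Pearson r = 0.96 on log2 CPM), followed by MLH3 and PMS1 (r = 0.91). MSH3 correlated with the others at 0.05 to 0.24. These values describe libraries that share treatments and scaling, and carry no test. Among 9411 genes measured in both lines, the pattern of MSH6 was most like that of the spindle checkpoint gene MAD2L1 (r = 0.988), the replicative helicase gene MCM6 (0.984) and HSPA4L (0.982). Among the genes most like EXO1 were USP48 (0.984) and NUP160 (0.974), a nuclear pore gene. PMS1 was nearest to MTIF2 (0.982), NAA15 (0.981) and the exportin gene XPO4 (0.981), and MLH3 to ASNSD1 (0.943), NCBP1 (0.942) and ZBTB11 (0.939). PMS2 was nearest to ZNF473 (0.93), SLC25A29 (0.909) and the clock gene CRY2 (0.899), and MSH3 to WAC (0.73), DYNC1LI2 (0.674) and KIF3A (0.672), the weakest of the leading matches.

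The later steps of the pathway were counted over 14 genes of the sliding clamp, the clamp loader, the single-strand binding protein RPA, DNA polymerase delta and DNA ligase. In NB4 cells 10 of 14 were called lower and 2 higher with ATRA, 4 lower and 3 higher with ATO, and 11 lower and 3 higher with the combination. Of all 16370 genes tested there, 4689 were lower and 5117 higher with ATRA, 3208 and 3466 with ATO, and 5369 and 5795 with the combination. The ATO counts of the list were not far from those shares. The clamp loader gene RFC3 fell with ATRA (-0.87 ± 0.0655, adjusted p = 1.21e-10) and the combination (-0.94 ± 0.0654, 1.82e-11), and the clamp gene PCNA with the combination (-0.61 ± 0.0567, 2.61e-09). POLD4, the smallest subunit of polymerase delta, rose with ATRA (2.59 ± 0.205, adjusted p = 2.77e-10), ATO (1.29 ± 0.213, 4.93e-05) and the combination (3.29 ± 0.202, 2.15e-12). In HL-60 cells 10 of 14 were lower and 1 higher with ATRA, 2 lower and 1 higher with ATO, and 13 lower and 1 higher with the combination, led by the ligase gene LIG1 (-1.10 ± 0.0536, adjusted p = 3.28e-14). Of all 15895 genes tested there, 3710 were lower and 4013 higher with ATRA, 1929 and 2625 with ATO, and 4713 and 4885 with the combination. The list's median log2 change was -0.39 in NB4 and -0.55 in HL-60 cells with the combination.

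Genes of S phase moved in the same libraries. Of 24 such genes, 20 were lower with ATRA, 14 with ATO and 20 with the combination in NB4 cells, and 18, 9 and 23 in HL-60 cells, with 1 or 2 higher each time. The shares of all genes called lower were the 28.6%, 19.6% and 32.8% given above for NB4 cells and 23.3%, 12.1% and 29.7% for HL-60 cells. RRM2, a subunit of the enzyme that makes deoxyribonucleotides, had the smallest p of the list with ATRA in NB4 cells and rose (0.75 ± 0.0558, adjusted p = 1.12e-10). The helicase gene MCM7 had the smallest p with ATO (-1.38 ± 0.0642, adjusted p = 3.74e-13) and the combination (-1.86 ± 0.0652, 1.15e-16). MCM6 fell with ATRA (-0.73 ± 0.0634, adjusted p = 1.43e-09) and the combination (-1.17 ± 0.0639, 3.01e-13) in NB4 cells. The summed level of the S phase genes was 2460 to 2660 CPM with the combination and 4390 to 4470 CPM untreated in NB4 cells, and 3060 to 3140 and 5530 to 5790 CPM in HL-60 cells. Of 20 genes of G2 and mitosis, 8, 8 and 10 were lower in NB4 cells with ATRA, ATO and the combination, and 14, 8 and 15 in HL-60 cells, while 2, 4 and 2 were higher in NB4 cells and 1, 0 and 2 in HL-60 cells. In NB4 cells the cyclin gene CCNA2 fell with the combination (-0.88 ± 0.063, adjusted p = 2.89e-11) and CCNB2 rose with ATO (0.34 ± 0.0572, 5.64e-05), each with the smallest p of its comparison. The part of these cell cycle genes in the members' changes was not tested.

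Markers of promyelocytes and of other blood cells moved too. The 6 promyelocyte genes summed to 2140 to 2830 CPM with the combination and 9160 to 9840 CPM untreated in NB4 cells, and to 213 to 265 and 3680 to 4140 CPM in HL-60 cells. MPO carried the NB4 sum, at 1960 ± 282 CPM with the combination and 8770 ± 349 CPM untreated (SD, n = 3 each). In NB4 cells 5 of the 6 passed the filter, of which 3 were lower and 2 higher with the combination, with PRTN3 at 481 ± 73.9 CPM with the combination and 373 ± 28.3 CPM untreated, and CD33 at 78.3 ± 7.55 and 61.6 ± 0.237 CPM. With ATRA in NB4 cells 2 were lower and 3 higher. Of all 16370 genes tested in NB4 cells, 5369 were lower and 5795 higher with the combination, and 4689 and 5117 with ATRA. In HL-60 cells all 6 were lower with the combination, where 29.7% of all genes were. Of 12 genes that mark lymphoid, erythroid and megakaryocytic cells, 6 passed the filter in NB4 cells, with 4 higher and 1 lower under the combination, and the 12 summed to 62.8 to 71.0 CPM with the combination and 8.02 to 10.3 CPM untreated. CD79A (33.1 ± 1.83 CPM with the combination) and ITGA2B (17.1 ± 1.61) made up most of it, while MS4A1, HBB and PF4 had 0 counts in all 24 libraries. In HL-60 cells the 12 summed to 4.15 to 5.37 CPM with the combination and 2.27 to 3.11 CPM untreated.

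Of 4 chromatin and helicase partners, all were lower with ATRA and with ATO in NB4 cells, where 28.6% and 19.6% of all genes were. With the combination 3 were lower in NB4 cells, where 32.8% of all genes were. In HL-60 cells 2 were lower with ATRA, 1 with ATO and 3 with the combination, against 23.3%, 12.1% and 29.7%. HMGB1, a chromatin protein, changed in NB4 cells by -0.52 ± 0.0702 with ATRA (adjusted p = 1.11e-06), -0.67 ± 0.0703 with ATO (1.22e-07) and -1.21 ± 0.0711 with the combination (9.76e-13). HMGB1 was lower in treated HL-60 cells too, with means of 1080 CPM with ATRA, 1230 with ATO and 900 with the combination, against 1560 untreated. MCM9, a helicase-like protein, fell with each treatment in NB4 cells (-0.51, -0.35 and -0.42) and was higher with the combination in HL-60 cells (0.30 ± 0.0691, adjusted p = 0.000598), and the combination responses differed between the lines (-0.70 ± 0.107, 1.75e-06). The histone methyltransferase gene SETD2 was lower with ATRA (-0.40 ± 0.0741, adjusted p = 7.9e-05) and ATO (-0.25 ± 0.0738, 0.00826) in NB4 cells. MCM8 was lower with ATRA in NB4 cells (-0.72 ± 0.0928, adjusted p = 5.93e-07) and HL-60 cells (-0.51 ± 0.0877, 4.46e-05). The meiotic MutS relatives were scarcely read, MSH4 at no more than 4 counts and MSH5 at 11 to 47 counts a library. Against untreated cells, MSH5 was called lower in HL-60 cells with the combination (-1.37 ± 0.421, adjusted p = 0.00756), and no other treatment of either line gave a call.

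Of the members, 3, with MSH6 and PMS1 among them, share exon bases with a gene on the opposite strand, and the sources used here do not say whether the counting used strand, so reads of that stretch cannot be assigned. MSH6 shares 1785 exon bases (16.2% of its exon length) with FBXO11, and PMS1 shares 103 (1.9%) with ORMDL1. FBXO11 rose with ATRA and the combination, under which MSH6 fell: by 0.38 ± 0.0704 with ATRA (adjusted p = 8.05e-05) and 0.32 ± 0.0702 with the combination (0.000395) in NB4 cells, and by 0.64 ± 0.0697 (6.58e-08) and 1.18 ± 0.07 (1.16e-12) in HL-60 cells. ORMDL1, whose start lies beside that of PMS1, fell in NB4 cells by -0.18 ± 0.0735 with ATRA (adjusted p = 0.0423), -0.30 ± 0.0734 with ATO (0.00246) and -0.19 ± 0.0733 with the combination (0.0293), against -0.95, -0.68 and -1.47 for PMS1. In HL-60 cells ORMDL1 rose with the combination (0.47 ± 0.0506, adjusted p = 3.45e-08).

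**Figure D5:**
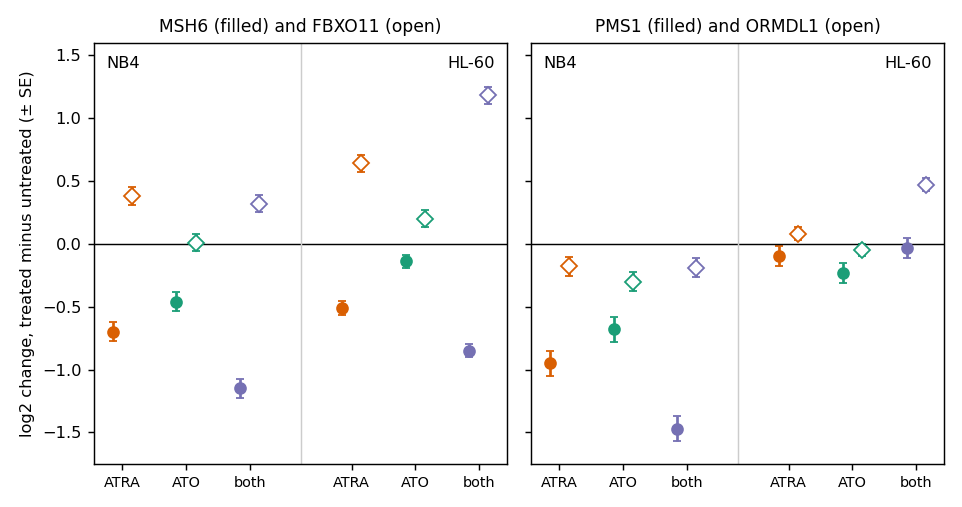
Log2 change, treated minus untreated (vertical axis, edgeR estimate ± SE), of MSH6 and PMS1 (filled circles) and of the gene that overlaps each on the opposite strand (open diamonds), by treatment (both, the combination) within each line. MSH6 and FBXO11 lie on opposite sides of 0 with the combination, at -1.15 and 0.32 in NB4 cells and -0.85 and 1.18 in HL-60 cells, and ORMDL1 lies above PMS1 with each treatment in NB4 cells.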

How the data were processed

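The authors deposited gene counts for 24 libraries of poly(A)-selected RNA, sequenced in read pairs per the labels' protocols. Per the submitters' processing notes, fastp, HISAT2, featureCounts and DESeq2 were used with GRCh38. The sources used here give no versions, strandedness or annotation release. Counts of 1 to 9 were even in 74.4% of cases, against 51.5% for counts of 500 or more, so mates may have been counted singly, and halved counts were tried.

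Members were matched to GENCODE v29 by gene identifier without its version. The counts were fitted with edgeR 4.0.16 (R 4.3.3; filterByExpr, TMM, glmQLFit and glmQLFTest) over the 12 libraries of a line (16370 genes in NB4, 15895 in HL-60), and over all 24 for differences between lines (17930 genes). All 6 members passed the filter. NB4 libraries had a biological coefficient of variation of 8.78%, HL-60 libraries of 7.0%. P-values were adjusted by Benjamini-Hochberg within each of 19 comparisons. RPKM used the union of exons or the principal transcript, and likeness was computed on log2 CPM (prior count 2) over genes with a mean of at least 5 CPM.

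All members are named in every comparison. Listed genes are named by smallest p among those called, up to 4, plus the uncalled one with the largest mean, and small lists whole. Of the listed genes so chosen the text gives a part, and some are not reported here. The members and lists were chosen with earlier results of these data known. The labels mark the replicate number as a batch, which pairs libraries across groups. Residuals of the 18 same-numbered pairs in each line had correlations between -0.527 and 0.365 for NB4 and between -0.104 and 0.404 for HL-60, and a fit with that block was an alternative. Further alternatives were DESeq2 1.42.0, limma-voom (limma 3.58.1), DESeq2 size factors, library sizes alone, other filters, a stricter adjusted p of 0.01, single libraries left out, the groups compared alone and a joint fit. Promoter letters came from RefSeq (GRCh38.p14). Tables and figures used Python 3.11.15, pandas 2.3.3, numpy 2.4.6, scipy 1.17.1 and matplotlib 3.10.9.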

Additional observations from a re-analysis of the deposited data

Results flagged for a closer look

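Responses that differed between the lines, by the test of the difference in edgeR's fit of 24 libraries, were looked at again. With ATRA the NB4 response minus the HL-60 response was -1.08 for MLH3, -0.86 for PMS1, -0.62 for EXO1 and -0.38 for PMS2. With the combination it was -1.41 for PMS1, -1.37 for MLH3, -0.37 for EXO1 and -0.28 for MSH6. With ATO it was -0.42 for PMS1, -0.32 for EXO1 and -0.29 for MSH6. The interaction of the drugs for EXO1 differed by 0.58. In each of these 12 differences the sign was the same in all 3 batches. Those signs come from the same libraries that gave the calls, so they are no separate support. No group held enough libraries for a test of single outlying values.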

How the results depend on the processing

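Of 114 member changes 59 were called, and 46 of those calls held under every alternative and every left-out library. Of 2934 values under alternatives 63 changed sign, all of them for changes that were not called. The batch block changed 1 call, MSH6 with ATO in HL-60 cells (-0.14, adjusted p = 0.0423), and no other. Counts of members called moved by more than 1.5 times as follows, and by no more than that, 1 member each, in 22 further cases that left out no library, 8 of them ATO in HL-60 cells (3 called) and others with library sizes alone (3 called for the combination and for the interaction in HL-60 cells). With library sizes alone 4 were called for combination against ATRA in NB4 cells (2 with TMM), 0 for the ATO difference between lines (3) and 2 for the combination difference (4). At an adjusted p below 0.01, 0 were called for the NB4 interaction (1), 1 for ATO in HL-60 cells (2), 2 for combination against ATO in HL-60 cells (4), 0 for the HL-60 interaction (2) and 0 for the ATO difference between lines (3). In the joint fit of 24 libraries 1 was called for ATO and 0 for the interaction in HL-60 cells, and for that interaction DESeq2, limma-voom and DESeq2 size factors called 1 each. Leaving out single libraries gave 0 to 1 for the NB4 interaction, 1 to 3 for ATO in HL-60 cells, 2 to 4 for combination against ATO in HL-60 cells, 0 to 1 for the HL-60 interaction, 0 to 3 for the ATO difference, 3 to 4 for the combination difference, 4 to 5 for the ATRA difference and 1 to 2 for the difference in interaction. The cause was not tested. The MSH6 to MSH3 ratio kept its direction in each left-out set, at -0.17 to -0.05 for ATO in HL-60 cells. The lowest count of a member was 235, for MLH3 in NB4 ATRA replicate 3, and whether depth limited any call was not tested.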
